A study of Mus musculus with 12 samples.

Results

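The pooled effect of myelin was measured across all 12 libraries of the series, 6 that had received myelin against 6 that had not. Each library held messenger RNA of mouse bone-marrow derived macrophages (BMDMs), labelled by the red fluorescent protein dTomato and sorted from ex vivo assays, per the labels. The 6 libraries with myelin came from the groups Myelin Alone and Full Tumor, and the 6 without it from the groups Control and Tumor without Myelin, with 3 libraries per group. Every group held 1 library of each of the numbers mn 957, mn 958 and mn 016, so each library with myelin had a partner without myelin of the same number and the same tumor state, which gave 6 pairs. The additive model estimated 1 myelin effect per gene beside terms for tumor and for the mn number. The labels give neither the meaning of "mn", nor the exposure time, the treatment of the Control macrophages, the way myelin was removed, the tumor model behind these libraries, nor whether the 3 libraries of a group came from separate animals. The p-values therefore measure the spread between these libraries, which may be technical. The series concerns exchanges between macrophages and tumor cells in mouse glioblastoma models, and its title names myelin recycling.

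Oligodendrocytes form myelin, the fatty membrane around axons, which carries much of the cholesterol of the brain. A macrophage that takes up cholesterol has a pair of textbook feedback responses. When sterol in the endoplasmic reticulum is high, INSIG proteins hold the SCAP-SREBP2 complex there, and the genes that SREBP2 switches on, such as those for cholesterol synthesis, are less active. Oxysterols in turn activate the nuclear receptors LXR-alpha and LXR-beta, which switch on genes for cholesterol export such as Abca1 and Abcg1.

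The libraries held 17071673 to 21689624 counts, and 16465 to 17861 genes were detected in each. Of the 24728 genes in the table, 13414 passed the low-count filter and were tested. Mitochondrial transcripts took 0.287 to 0.941% of the counts without myelin and 0.411 to 0.766% with it. The summed level of 12 macrophage markers ran from 14540 to 25320 CPM (counts scaled to library size) without myelin and from 15200 to 24110 with it. In such bulk libraries, a change in the RNA per cell and a change in the share of a cell type cannot be told apart. Summed microglia markers were 406 to 1135 CPM without and 654 to 971 CPM with myelin (10 of 11 markers had a count, Sall1 had none), and summed neutrophil markers were 119 to 529 and 68.9 to 295 CPM (14 of 14). Tumor and progenitor markers (8 of 8 with a count) summed to 38.4 to 141 CPM without and 44.3 to 144 CPM with myelin, and lymphocyte markers (5 of 9, with Cd3e, Cd3d and Cd8a among those at 0) to 0.769 to 3.39 and 1.48 to 8.22 CPM. Dendritic cell, endothelial, astrocyte and neuron markers had 5 of 5, 4 of 5, 3 of 4 and 2 of 4 members with a count, and their sums did not exceed 31.6 CPM in any library. The part of these cells in the results was not tested.

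With myelin, 21 genes changed by edgeR's quasi-likelihood test at an adjusted p under 0.05 (Benjamini-Hochberg over all tested genes), which was 0.157% of the genes tested. Of these, 14 fell (0.104%) and 7 rose (0.0522%). An unadjusted p under 0.05 was reached by 983 genes (7.33%). The 14 that fell included 6 enzymes of cholesterol synthesis (among them Sqle, Cyp51, Fdft1 and Msmo1), the sterol sensor gene Insig1, and Dok2, Cd72, Stap1, Pilra, Clec4b1 and Pcp4l1. The 7 that rose were the lipid exporter gene Abcg1, the phospholipid transfer protein gene Pltp, the lipid droplet coat gene Plin2, the glutathione transferase genes Gsta3 and Mgst1, and Kif13b and Stra6l. All 21 moved in the direction of the call in all 6 pairs, as 794 of the tested genes (5.92%) did in either direction. The ranges of the 2 sets of 6 libraries did not overlap for 6 of the 21 (among them Abcg1, higher with myelin, and Sqle, Cyp51, Msmo1 and Stap1, lower), and for 24 genes (0.179%) of all those tested.

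The number of calls was sensitive to the libraries used. Without the 4 libraries of mn 957, edgeR called 0 genes (689 at an unadjusted p under 0.05), without those of mn 958 it called 3, and without those of mn 016 it called 26, of which 13 were among the 21. Among single libraries, 6 genes were called without Control 957, 7 without Myelin Alone 957, 6 without Tumor without Myelin 957, 6 without Full Tumor 957, 7 without Control 958, 5 without Myelin Alone 958, 15 without Tumor without Myelin 958, 10 without Full Tumor 958, 19 without Control 016, 11 without Myelin Alone 016, 16 without Tumor without Myelin 016 and 10 without Full Tumor 016. Sqle, Cyp51, Abcg1 and Gsta3 were called in each of the 12 fits that left out 1 library and Dok2 in 11, while the other genes named here were called in 0 to 5 of them. The direction of all 21 was the same in every one of these fits.

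**Figure D1:**
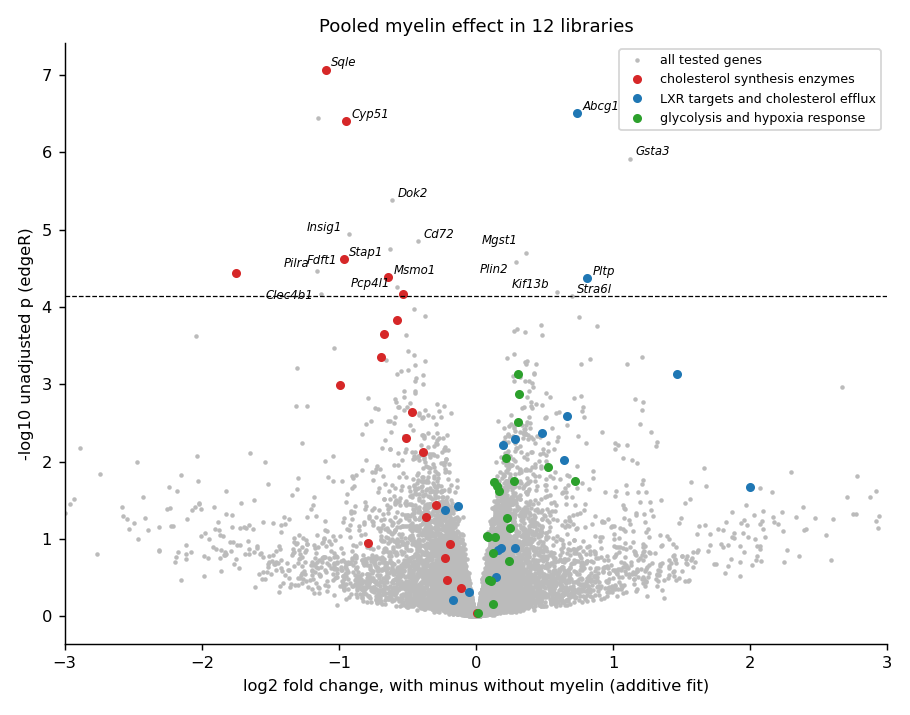
Log2 fold change of each tested gene in the additive fit (x axis, with minus without myelin, genes beyond 3 in size not drawn) against its unadjusted p on a -log10 scale (y axis), with called genes named and the dashed line at the largest p among them. Red points are the cholesterol synthesis enzymes, 20 of 21 left of 0, blue points the LXR targets, 13 of 17 right of 0, and green points the glycolysis genes, 21 of 21 right of 0 with none called.

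Of the 21 cholesterol synthesis enzymes listed, all were tested and 20 had a log2 fold change below 0 with myelin. Of these 6 fell (against 0.104% of all tested genes) and 0 rose. An unadjusted p under 0.05 by edgeR was reached by 14, all of them lower (against 7.33% of all tested genes in either direction). The median log2 fold change of the 21 was -0.53, against 0.01 over all tested genes. In the 6 pairs the list's median lay between -0.67 and -0.35. Under plain library totals the count of enzymes below 0 was 21 in place of 20, and Ebp was the one that changed sides. Without the mn 957 libraries, 21 were below 0 and 0 were called, and without those of mn 958, 19 were below 0 and 2 were called. The list was drawn up with earlier results of these data known, so its direction is a description.

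Squalene epoxidase (Sqle, ENSMUSG00000022351, chr15:59315077-59331192 on mm10), which makes the first oxygenated sterol precursor, had the smallest p. Its level without myelin was 81.4 CPM in the lowest library, 123 in the median and 223 in the highest, and with myelin 43.0, 62.9 and 75.6. Every library with myelin thus lay below every library without it. Means were 134 ± 48.1 CPM without and 60.9 ± 11.5 with myelin (SD, n = 6 each), a fitted log2 fold change of -1.09 ± 0.10 (SE), or 2.14-fold lower, at an adjusted p of 0.00116 by edgeR's quasi-likelihood test. Lanosterol demethylase (Cyp51, ENSMUSG00000001467, chr5:4081145-4104746) spanned 73.6 to 113 CPM without myelin (median 88.2) and 41.6 to 55.0 with it (median 45.4), again without overlap. It fell by 0.95 on the log2 scale (SE 0.10, adjusted p 0.00134 by edgeR).

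Squalene synthase (Fdft1), the first committed step towards sterols, fell by 0.96 ± 0.15 (log2, SE; adjusted p 0.0293 by edgeR), from a median of 52.3 CPM (30.1 to 56.7) to 24.5 CPM (18.8 to 32.3). Here the sets overlapped, because Tumor without Myelin 016 at 30.1 CPM lay under the highest library with myelin. The methylsterol oxidase gene Msmo1 went from 157 to 276 CPM (median 205) to 102 to 153 CPM (median 136) and fell by 0.64 ± 0.10 (adjusted p 0.0357 by edgeR), with no overlap.

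Several other enzymes of the chain did not pass the adjusted threshold. Hmgcs1, which makes HMG-CoA, had 53.5 to 66.3 CPM without and 28.1 to 51.4 CPM with myelin and a log2 fold change of -0.69 ± 0.15 (adjusted p 0.142). Idi1, the isopentenyl isomerase, was at -0.99 ± 0.23 (adjusted p 0.193), and Sc5d, a late sterol desaturase, at -0.58 ± 0.11 (adjusted p 0.0799). For these 3 genes the sets did not overlap, and all 6 pairs were below 0. In all, 6 of the 21 cholesterol synthesis enzymes were among the 24 genes with non-overlapping sets, which were 0.179% of all tested genes. Another of the 24, Erg28, encodes a membrane protein that tethers sterol enzymes (-0.37 ± 0.08, adjusted p 0.142 by edgeR). Ebp, the sterol isomerase, was at 101 ± 6.34 CPM without and 102 ± 8.46 with myelin, a log2 fold change of 0.01 ± 0.07.

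The control side of the SREBP2 pathway had 10 of 11 members tested, of which 2 fell (against 0.104% of all tested genes), 0 rose and 5 reached an unadjusted p under 0.05, all lower (against 7.33% in either direction). Among those that fell, Insig1 (ENSMUSG00000045294, chr5:28071363-28078662), the sterol-sensing anchor of SCAP, spanned 43.1 to 81.9 CPM without and 20.7 to 58.7 CPM with myelin and fell by 0.92 ± 0.13 (adjusted p 0.0220 by edgeR). The overlap came from the mn numbers, since mn 958 was the highest of the 3 in each group, and within a number every library with myelin was below its partner. Stard4, a sterol carrier, was at -0.72 ± 0.19 (adjusted p 0.256), and Srebf2 itself at -0.42 ± 0.15 (adjusted p 0.487). Insig2, Scap, Mbtps1 and Mbtps2, which encode the SREBP anchor, escort and proteases, lay between -0.06 and 0.06.

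Promoter sequence was available for 7 of the 14 genes that fell and 5 of the 7 that rose, and for 9824 of the tested genes, as windows of 300 bases (250 before to 50 after the RefSeq start). They were searched on both strands for the sterol regulatory element written TCACNCCAC, the CCAAT box written CCAAT (the motif of NF-Y, a partner of SREBP factors), the E-box written CACGTG and the LXR element DR4 (AGGTCA and the same letters again after 4 bases). The CCAAT box was present in 15 of the 16 cholesterol synthesis enzymes with a window (93.8%), in 5 of 7 genes that fell (71.4%), in 3 of 5 that rose (60%) and in 43.3% of all tested genes with a window. The run TCACNCCAC was present in 1 of the 16 enzymes (6.25%), Hmgcs1, and in 1.36% of all tested genes with a window. The E-box was in 3 of the 16 enzymes (18.8%) and 11.9% of the tested genes. The exact LXR run was in 0 of the 9824 tested genes with a window. It was in only 4 of all 27025 genes with a window, so its absence does not set any list apart. A match is a run of letters, and no binding was measured here. Elements spelled otherwise or lying outside the window were not searched for, so a gene without a match may still hold one. The windows of 3 enzymes and of the sterol sensor are shown as examples from the sterol pathway described above. Hmgcs1, which was not called, is among them as the 1 enzyme with a match to TCACNCCAC. The CCAAT box was also present in Ebp, which held 2 at a log2 fold change of 0.01. Whether the motifs relate to the changes was not tested. Capitals mark the matches, which on the opposite strand read ATTGG for the CCAAT box.
Cyp51 promoter, GRCm38.p6, chr5:4104648-4104947, minus strand: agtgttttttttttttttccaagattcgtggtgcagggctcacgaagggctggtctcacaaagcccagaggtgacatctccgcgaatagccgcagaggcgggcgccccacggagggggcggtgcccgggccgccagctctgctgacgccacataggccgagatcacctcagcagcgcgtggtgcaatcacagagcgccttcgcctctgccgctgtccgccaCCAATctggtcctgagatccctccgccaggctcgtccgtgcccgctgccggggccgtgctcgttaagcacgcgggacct
Msmo1 promoter, GRCm38.p6, chr8:64733529-64733828, minus strand: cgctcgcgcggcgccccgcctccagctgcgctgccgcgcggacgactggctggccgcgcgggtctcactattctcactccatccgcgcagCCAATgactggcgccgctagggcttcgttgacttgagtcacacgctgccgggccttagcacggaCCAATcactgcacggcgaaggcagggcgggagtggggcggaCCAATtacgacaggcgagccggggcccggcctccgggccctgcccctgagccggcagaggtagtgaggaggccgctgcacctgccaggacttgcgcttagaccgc
Insig1 promoter, GRCm38.p6, chr5:28071162-28071461, plus strand: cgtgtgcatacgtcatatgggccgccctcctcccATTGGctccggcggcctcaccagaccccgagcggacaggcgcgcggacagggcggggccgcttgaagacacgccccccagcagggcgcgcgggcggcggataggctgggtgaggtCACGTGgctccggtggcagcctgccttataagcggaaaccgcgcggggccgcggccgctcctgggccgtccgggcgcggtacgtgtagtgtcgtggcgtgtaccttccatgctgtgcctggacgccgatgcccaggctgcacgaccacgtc
Hmgcs1 promoter, GRCm38.p6, chr13:119690101-119690400, plus strand: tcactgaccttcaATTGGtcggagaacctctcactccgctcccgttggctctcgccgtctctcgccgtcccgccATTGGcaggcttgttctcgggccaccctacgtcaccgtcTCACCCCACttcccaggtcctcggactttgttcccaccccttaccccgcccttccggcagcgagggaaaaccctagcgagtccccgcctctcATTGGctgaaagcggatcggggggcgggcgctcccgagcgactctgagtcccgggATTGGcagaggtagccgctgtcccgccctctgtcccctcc
Cyp51 held 1 CCAAT box, Msmo1 held 3 and Insig1 held 1 beside an E-box. Hmgcs1 held 4 beside the match to TCACNCCAC, which began at position -137 from the start.

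**Figure D2:**
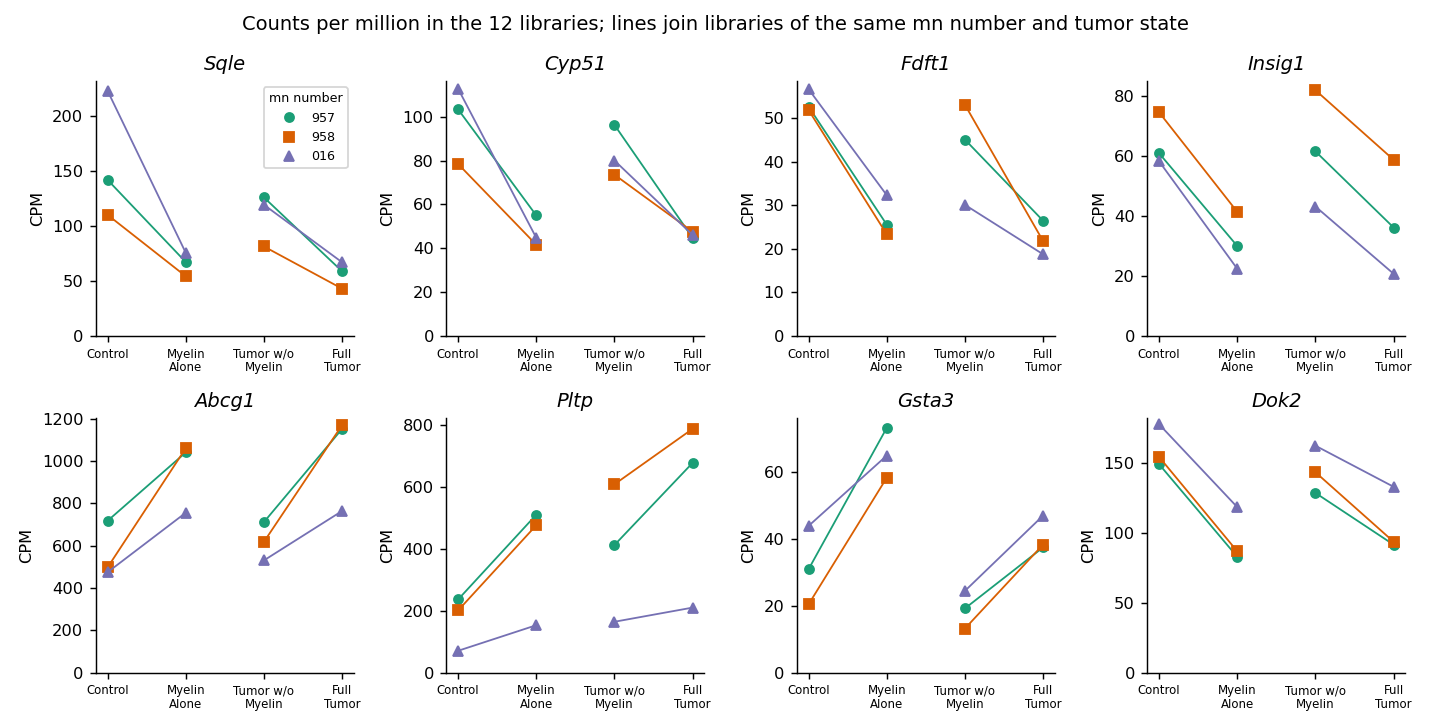
CPM (y axis, from 0) of 8 called genes in each of the 12 libraries by group (x axis). Lines join libraries of the same mn number and tumor state, and each of the 6 lines descends with myelin for Sqle, Cyp51, Fdft1, Insig1 and Dok2 and ascends for Abcg1, Pltp and Gsta3.

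Of the 18 genes listed as LXR targets or for cholesterol efflux, 17 were tested. Among them 2 rose (against 0.0522% of all tested genes) and 0 fell, 13 were above 0 and 4 below, and the median log2 fold change was 0.28. An unadjusted p under 0.05 by edgeR was reached by 11 (against 7.33% of all tested genes), and 2 of these, Lpl and Srebf1, were lower. The sterol exporter gene Abcg1 (ENSMUSG00000024030, chr17:31057675-31117988) had 475 CPM in the lowest, 574 in the median and 718 in the highest library without myelin, and 756, 1051 and 1170 with it. All 6 libraries with myelin were above all 6 without. The fitted log2 fold change was 0.74 ± 0.08, 1.67-fold, with an adjusted p of 0.00134 by edgeR. Pltp (ENSMUSG00000017754, chr2:164839518-164857711), a secreted lipid transfer protein, rose by 0.81 ± 0.13 (adjusted p 0.0357 by edgeR), from a median of 218 CPM (70.4 to 608) to 493 CPM (153 to 787). Its libraries were spread mainly by number: the 4 of mn 016 lay between 70.4 and 210 CPM, and the other 8 between 201 and 787.

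Abca1, the other main exporter, was at 63.6 ± 47.4 CPM without and 142 ± 60.9 with myelin (SD, n = 6 each). Its log2 fold change of 1.47 ± 0.33 had an adjusted p of 0.163, and all 6 pairs were above 0, between 0.72 and 3.63, the latter against Control 016 at 3.73 CPM. Mylip, which encodes a ubiquitin ligase, was at 0.48 ± 0.14 (adjusted p 0.324). Cd5l at 0.66 ± 0.18, Lpcat3 at 0.28 ± 0.08, Smpdl3a at 0.20 ± 0.06 and Mertk at 0.64 ± 0.21 were above 0 in all 6 pairs too, with adjusted p of 0.273 to 0.415. Apoe, which carries exported lipid, had 2110 to 14060 CPM without and 3015 to 12910 CPM with myelin and a log2 fold change of 0.16 ± 0.10 (adjusted p 0.839). Of the lipogenic targets, Srebf1 was at -0.22 ± 0.10, Scd1 at -0.16 ± 0.31 and Scd2 at 0.28 ± 0.17, the last above 0 in 5 of 6 pairs.

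Of the genes for storing and burning lipid, Plin2 alone was called, where 0.157% of all tested genes were. Perilipin 2 (Plin2) coats lipid droplets and rose by 0.29 ± 0.04 (adjusted p 0.0297 by edgeR), from 1876 to 2872 CPM (median 2354) to 2315 to 3437 CPM (median 2925). The change was small and the sets overlapped, while the 6 pair differences lay between 0.16 and 0.43. The other 11 tested members of the lipid droplet list had no call, and the list's median was 0.05. Fatty acid synthesis had 0 of 17 called and a median of -0.10, which turned to 0.01 without the mn 016 libraries. Fatty acid oxidation and PPAR targets had 0 of 18 called and a median of 0.05, with Cpt1a, the gate of fatty acids into mitochondria, at 0.36 ± 0.08 (adjusted p 0.142) and the lipid chaperone gene Fabp4 at 0.42 ± 0.10 (adjusted p 0.197).

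Genes for the lysosomal breakdown of lipids had 0 of 18 called, yet 16 were above 0 (against 51.9% of all tested genes), with a median of 0.18. An unadjusted p under 0.05 by edgeR was reached by 7 (against 7.33% of all tested genes). Scarb2, a lysosomal membrane protein that also delivers glucocerebrosidase, had 125 to 215 CPM without and 191 to 284 CPM with myelin, 0.47 ± 0.09 on the log2 scale (adjusted p 0.0863). Glb1, which encodes a glycolipid hydrolase, was at 0.33 ± 0.09 (adjusted p 0.255), and the cholesterol egress gene Npc1 at 0.23 ± 0.07 (adjusted p 0.324). Psap was at 0.47 ± 0.24, with the 4 libraries of mn 016 ranging from 1557 to 4927 CPM and its pair differences from -0.94 to 1.66. Lipa, the acid lipase, was at -0.02 ± 0.06.

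Of 20 markers of lipid-associated macrophages, Plin2 was the 1 called member (0.0522% of all tested genes rose), and the list's median was 0.09. An unadjusted p under 0.05 by edgeR was reached by 8 (against 7.33% of all tested genes), and 3 of these were lower. Gpnmb stood at 14970 ± 2240 CPM without and 16170 ± 2237 with myelin, a log2 fold change of 0.11 ± 0.06 (adjusted p 0.778). Spp1 was at 0.16 ± 0.06 (adjusted p 0.571) and the lipid receptor gene Trem2 at -0.05 ± 0.05 (adjusted p 0.911), while Fabp5 was at 0.41 ± 0.10 (adjusted p 0.255). Scavenger and phagocytic receptors with their bridging molecules had 0 of 21 called and a median of 0.06.

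Gsta3 (ENSMUSG00000025934, chr1:21240589-21265661), a glutathione transferase that detoxifies lipid peroxidation products, was among the genes of smallest p. It had 13.2 CPM in the lowest, 22.5 in the median and 44.0 in the highest library without myelin, and 37.5, 52.7 and 73.3 with it. It rose by 1.13 ± 0.13, 2.18-fold, at an adjusted p of 0.00326 by edgeR. The sets overlapped through Control 016 at 44.0 CPM, and each pair differed by 0.56 to 1.53. Mgst1, a microsomal glutathione transferase, rose by 0.37 ± 0.06 (adjusted p 0.0272 by edgeR), from a mean of 339 ± 79.1 to 436 ± 101 CPM. In the list of NRF2 targets and oxidative defense, 1 of 16 (Gsta3) rose (against 0.0522% of all tested genes), 14 were above 0 (against 51.9% of all tested genes), and the median was 0.17. Hmox1, which degrades heme, was at 0.54 ± 0.13 (adjusted p 0.235) with all 6 pairs above 0.

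The other genes that fell, Dok2, Stap1, Cd72, Pilra, Clec4b1 and Pcp4l1, belong to none of the gene lists. Dok2 (ENSMUSG00000022102, chr14:70766036-70778495), an adaptor that dampens kinase signalling in blood cells, had 129 to 178 CPM without (median 152) and 82.8 to 133 CPM with myelin (median 92.6) and fell by 0.61 ± 0.08 (adjusted p 0.00936 by edgeR). Stap1, an adaptor described in B cells and microglia, went from 135 to 182 CPM to 90.6 to 123 CPM without overlap and fell by 0.63 ± 0.09 (adjusted p 0.0265 by edgeR), with Tumor without Myelin 016 and Full Tumor 016 the closest pair at -0.14. Cd72, an inhibitory lectin-like receptor, fell by 0.42 ± 0.06 (adjusted p 0.0236 by edgeR), from 824 ± 217 to 614 ± 167 CPM. Pilra, an inhibitory receptor, and Clec4b1, a C-type lectin, were low in all libraries. Pilra fell from a mean of 8.59 to 3.87 CPM (-1.16 ± 0.18, adjusted p 0.0344 by edgeR) and Clec4b1 from 12.7 to 5.75 CPM (-1.13 ± 0.19, adjusted p 0.0454 by edgeR). Pcp4l1, a gene related to the calmodulin regulator Pcp4, fell by 0.57 ± 0.10 (adjusted p 0.0440 by edgeR). Among the genes that rose, the kinesin gene Kif13b went from 30.6 ± 9.06 to 45.4 ± 12.1 CPM (0.59 ± 0.10, adjusted p 0.0454 by edgeR), and Stra6l, related to the retinol transporter Stra6, from 26.4 ± 7.39 to 41.9 ± 5.40 CPM (0.70 ± 0.12, adjusted p 0.0463 by edgeR). Clec4b1 and Pilra have close relatives in the genome, and since the counting program is not given in the sources used here, reads shared with them may affect these values.

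**Figure D3:**
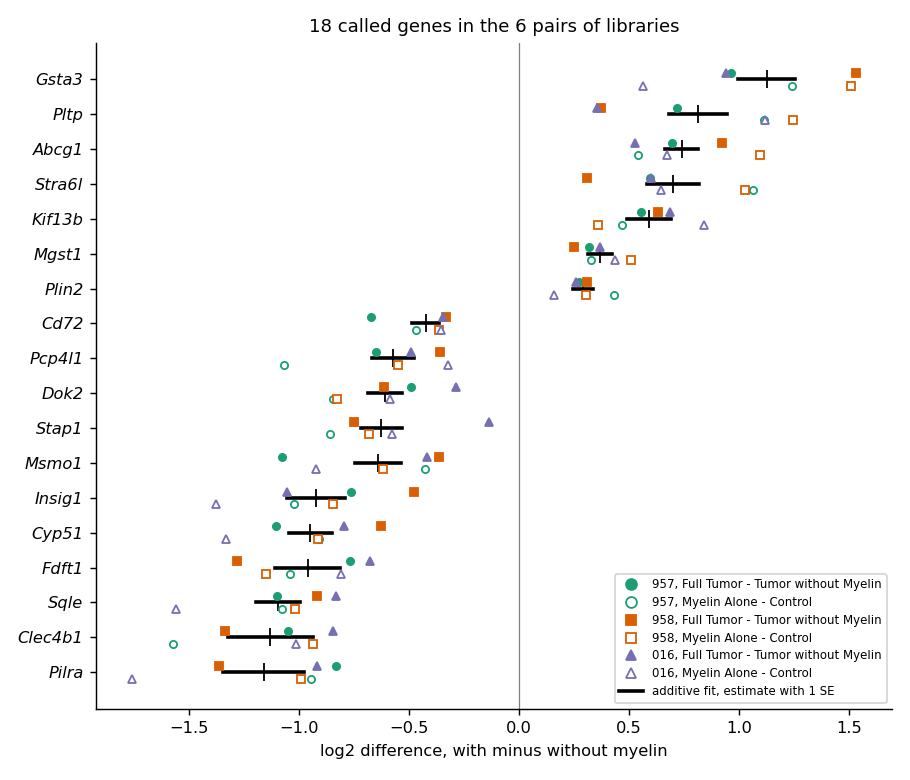
Log2 differences (x axis, with minus without myelin) of called genes in the 6 pairs of libraries, filled symbols with tumor and open symbols without, and the fitted estimate with 1 SE in black. Every symbol lies on the side of its call, for Gsta3 between 0.56 and 1.53 and for Sqle between -1.56 and -0.83.

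The additive model takes 1 myelin effect with and without tumor, and the interaction tested that. It gave 0 calls by edgeR (393 genes at an unadjusted p under 0.05), 0 by DESeq2 (485 unadjusted) and 0 by limma-voom (446 unadjusted). With 3 libraries per group, a gene could differ between the tumor states and still not be called. The 0 calls therefore do not show that the effects are equal. Separate estimates of the myelin effect compared different libraries. Both came from 1 fit of all 12 libraries, with shared terms for the mn number and a shared estimate of the spread. Their p-values are therefore not independent. Without tumor (Myelin Alone minus Control), 5 genes (0.0373%) were called: Pltp rose, and Sqle, Cyp51, Dok2 and Ccl6 fell. With tumor (Full Tumor minus Tumor without Myelin), edgeR called 0 genes (520 unadjusted, against 810 without tumor). The median SE of a log2 fold change was 0.163 in the pooled fit and 0.231 in each of the separate estimates. Over all tested genes, 55.7% had the same sign in both, and their log2 fold changes had a Pearson correlation of 0.055. Of the 810 genes with an unadjusted p under 0.05 without tumor, 70.7% had the same sign with tumor. Among these 810, 114 also reached an unadjusted p under 0.05 with tumor in the same direction (edgeR).

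All 21 genes of the pooled result had the same sign and an unadjusted p under 0.05 by edgeR in both estimates. The 21 were chosen by the pooled p from the same 12 libraries. Their agreement between the estimates follows in part from that choice, so it is a description and no separate test. Among all tested genes, 125 had an unadjusted p under 0.05 in both estimates, 11 of them in opposite directions. The values were close for Abcg1 (0.76 without and 0.72 with tumor), Gsta3 (1.10 and 1.15), Fdft1 (-0.98 and -0.94) and Plin2 (0.30 and 0.28). The difference in size was larger for Pltp (1.15 and 0.47, interaction -0.68 ± 0.18). Pltp had the lowest interaction p among the 21, 0.00329 before and 0.9998 after adjustment by edgeR. The change was larger without tumor for 16 of the 21, a count for which no share over all tested genes was taken. The interaction called 0 of these genes. Abca1 was at 2.12 without and 0.86 with tumor (interaction -1.26 ± 0.56, unadjusted p 0.0436 by edgeR). The microglia markers, a list with 0 of 8 called, had opposite medians, 0.36 without and -0.42 with tumor, so that their pooled median of -0.09 stands for no single direction.

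**Figure D4:**
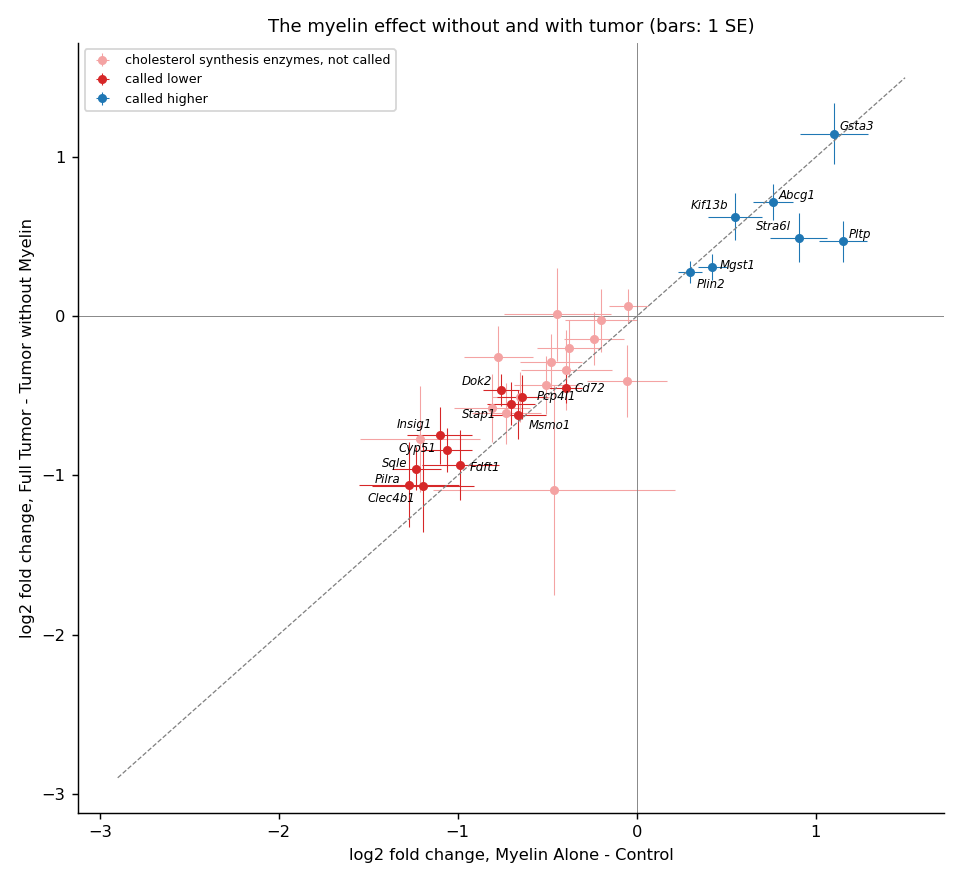
Log2 fold change of the myelin effect without tumor (x axis) and with tumor (y axis) from the 4-group fit, for called genes and the cholesterol synthesis enzymes that were not called, with bars of 1 SE and a dashed line where the values are equal. Most called genes lie near the line, with Pltp (1.15 and 0.47) farther from it.

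Some gene groups lay to one side of 0 with no member called, where 51.9% of all tested genes were above 0 and 48.1% below. All 31 tested interferon-induced genes had adjusted p of 0.507 or more, 29 were below 0, and the median was -0.45. The list's median was lowest in the pair of mn 016 without tumor, at -0.79, and the other 5 pairs gave -0.44 to -0.17. Without the mn 016 libraries 24 of 31 were below 0, with a median of -0.22. In that fit 11 of the 31 reached an unadjusted p under 0.05 by edgeR, against 3 with all libraries, and 0 were called. Ifit2, a translation inhibitor, was at -1.35 ± 0.54 (adjusted p 0.584), and the interferon target Rtp4 at -0.62 ± 0.46. All 27 proliferation genes were below 0 (25 without the mn 016 libraries and 26 without those of mn 957), with a median of -0.29, pair medians of -0.54 to -0.04 and a lowest adjusted p of 0.515 for the thymidine kinase gene Tk1. Neutrophil markers lay on the same side, with 10 of 12 tested members below 0, 0 called and a median of -0.84, but with medians of -1.26 without and 0.29 with tumor. Mpo, the granule peroxidase of neutrophils and their precursors, had 111 CPM in Control 016 against 27.2 in Myelin Alone 016, and 10.6 CPM in Tumor without Myelin 016 against 3.88 in Full Tumor 016. It did not exceed 1.10 CPM in any library of mn 957 or mn 958. The part of these cells in the interferon and proliferation values was not tested. All 21 tested genes of glycolysis and the hypoxia response were above 0 under TMM factors and 20 under plain library totals, without mn 957 and without mn 016. Their median was 0.16, and the lowest adjusted p was 0.163, for the phosphoglycerate mutase gene Pgam1 (0.30 ± 0.07). Inflammatory cytokines and their feedback genes had 0 of 16 called, 6 above and 10 below 0. Ccl2, a monocyte attractant, was at 1.04 ± 0.31 (adjusted p 0.352), and its level differed far more between numbers than with myelin, at 1.28 to 21.0 CPM in the 8 libraries of mn 957 and mn 958 and 194 to 352 CPM in the 4 of mn 016.

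**Figure D5:**
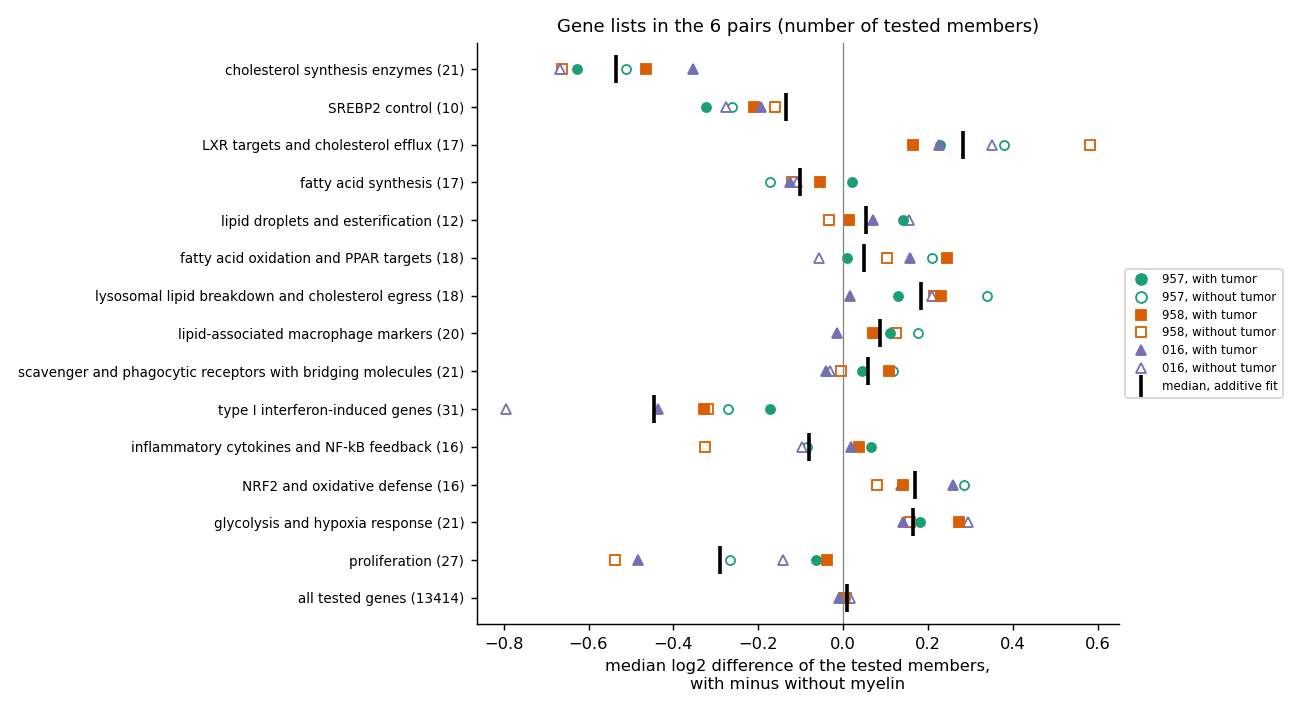
Median log2 difference (x axis, with minus without myelin) of the tested members of each gene list in the 6 pairs of libraries, filled symbols with tumor and open without, with the median of the additive fit as a black bar. The cholesterol synthesis list lies between -0.67 and -0.35 in all pairs and the LXR list between 0.16 and 0.58, while all tested genes stay within 0.02 of 0.

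Transcripts of myelin itself were sought among 13 oligodendrocyte markers, of which 8 had any count and Mog, Cldn11, Mal, Ermn and Opalin had none. Their summed level was 111 to 159 CPM without and 121 to 161 CPM with myelin, and nearly all of it was Mbp (44.5 to 77.0 CPM without, 47.2 to 72.5 CPM with myelin) and Cnp (53.1 to 85.0 and 52.5 to 90.5 CPM). Mobp, which encodes a structural protein of central myelin, had 0 counts in all 6 libraries without myelin and 8 to 16 counts in each of the 6 with it. Its mean with myelin was 0.631 CPM, at least 23.2-fold higher than the 0.0273 CPM that 3 counts over the 6 libraries without myelin would give. The adjusted p was 0.110 by edgeR. Of all 24728 genes in the table, 2 were at 0 in every library without myelin and counted in every library with it, Mobp and the gene Gm15707 (1 to 3 counts per library), and 0 showed the reverse. Mobp was singled out after its values were seen.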

How the data were processed

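Messenger RNA of 12 libraries was primed with oligo-dT and amplified by template switching, per the labels' protocols. The authors deposited raw counts per gene, whole numbers without normalization. The build is mm10, per the submitters' processing notes. Aligner, counting program and strandedness: not given in the sources used here. Overlapping or antisense genes can therefore share reads. Total counts were 17071673 to 21689624 per library, and 3 counts, the limit that a count of 0 allows, equal 0.138 to 0.176 CPM. Floors cover counting error only.

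edgeR 4.0.16 (R 4.3.3) filtered genes with filterByExpr, scaled with TMM factors and fitted a quasi-likelihood model with terms for myelin, tumor and mn number (7 residual degrees of freedom, biological coefficient of variation 0.263). A model of the 4 groups and mn number gave the interaction and the separate effects. Two-sided p-values were corrected by Benjamini-Hochberg over 13414 genes (99.9% of counts), threshold 0.05. The SE was obtained by dividing the size of a log2 fold change by the root of its F statistic. Pair differences are log2 CPM (prior count 2) between libraries of the same number and tumor state. CPM use totals multiplied by TMM factors, with SD over the 6 libraries of a set. The fit was tested on simulated data.

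Deviations from the group means had a correlation across genes of 0.120 to 0.631 in the 18 pairs that share a number, above 0.1 in 18. Of the 12 libraries, 11 had their highest such correlation outside their own group with a library of their own number. Libraries that share a number thus mostly resembled each other. No libraries of a group were duplicates (chi-square per degree of freedom of at least 23.9 over genes with 20 or more counts). Genes named were the 12 highest and 12 lowest log2 fold changes among called genes of at least 10 CPM that moved alike in 6 pairs, the 10 smallest p, up to 5 called and 3 uncalled members of each list, and a fixed set of lipid genes. Pilra, Mobp, Ccl6 and others outside this rule were named after their values were seen. The comparison, lists and named genes were chosen with earlier results of these data known. Alternatives were the model terms, scaling, filter, DESeq2 1.42.0, limma-voom 3.58.1, and leaving out numbers or libraries. Promoters are from RefSeq on GRCm38.p6, the assembly of mm10. Some called genes and list members counted in the totals are not reported here by name.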

Additional observations from a re-analysis of the deposited data

Results flagged for a closer look

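Among 31 genes examined for their CPM values, the spread within each set of 6 libraries was examined on the log2(CPM + 1) scale, 62 sets in all, for a single library far from the other 5. Chance marks about 1 in 20 such sets. There was 1: Fdft1 among the libraries without myelin, where Tumor without Myelin 016 had 30.13 CPM and the other 5 lay between 45.1 and 56.7. The gap to the nearest library was 0.637 of the whole range.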

How the results depend on the processing

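All 21 called genes kept their direction under every alternative. With no replicate block, that is without the mn number that pairs the libraries, edgeR called 2 genes, 0 higher and 2 lower (335 at an unadjusted p under 0.05), with 1 cholesterol synthesis enzyme and 0 LXR targets among them, and 2 of the 21 kept. With the 4 groups in the model 15 genes were called, 9 of them lower, and 14 of the 21 kept. DESeq2 called 127 genes, 56 higher and 71 lower, including 11 cholesterol synthesis enzymes and all 21, and limma-voom called 30, of which 12 were higher, also with all 21. Plain library totals, RLE factors, no low-count filter and a strict filter gave 22, 20, 29 and 22 genes. Leaving out 1 number or 1 library gave 0 to 26 called genes, 0 to 15 higher and 0 to 11 lower, 0 to 4 cholesterol synthesis enzymes and 0 to 3 LXR targets; these fits have fewer samples. The interaction gave 0 calls under every alternative. The cause of the other differences was not tested. The highest adjusted p over the alternatives was 0.269 for Cyp51, 0.258 for Abcg1, 0.168 for Sqle and 0.447 for Gsta3. For the other called genes named here it was 0.697 to 0.9995. At these depths a gene with 0 counts in a library may have up to 0.176 CPM, and low genes such as Pilra and Mobp have the least precise values.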

Other observations

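The glutathione transferase genes were looked at as a family after Gsta3 and Mgst1 were seen among the called genes. Of 18 such genes tested, 17 were above 0, 3 reached an unadjusted p under 0.05, all of them higher, and 2 were called. Over all 13414 tested genes, 51.9% were above 0, 7.33% reached an unadjusted p under 0.05 and 0.157% were called. The family was chosen for its 2 called members, so its counts are a description. The third was Gsto1, at 172 CPM without and 219 CPM with myelin, whose sets of 6 did not overlap (0.36 ± 0.07, adjusted p 0.0914 by edgeR). Gstm1 was at 0.16 ± 0.10 and Gstp1 at 0.08 ± 0.08, and Gstcd was the 1 below 0 (-0.63 ± 0.47, adjusted p 0.871).

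Of the 24 genes whose sets of 6 libraries did not overlap, 9 were higher and 15 lower with myelin, and 18 were not called. Apart from the sterol genes, Gsto1 and Mobp, they included the surface receptor gene Cd300ld (314 to 210 CPM in the means, -0.58 ± 0.13, adjusted p 0.163 by edgeR), the inhibitory Fc receptor gene Fcgr2b (44.5 to 59.2 CPM, 0.41 ± 0.09, adjusted p 0.182) and Emp2, an epithelial membrane protein gene (95.3 to 73.7 CPM, -0.37 ± 0.07, adjusted p 0.0752). These genes were chosen after their values were seen.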
